A study of Mus musculus with 9 samples.

Results

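The dual-specificity MAP kinase phosphatases are 10 genes in the mouse, *Dusp1*, *Dusp2*, *Dusp4*, *Dusp5*, *Dusp6*, *Dusp7*, *Dusp8*, *Dusp9*, *Dusp10* and *Dusp16*. They were found by an exact match of the gene symbol among the 37104 loci listed for each RNA-seq library, of which 33353 carry a symbol that names 1 locus. All 10 were found, each at 1 locus. The libraries were made from mouse lung endothelial cells (MLEC), which were taken from the lungs by selection with beads against ICAM2 and grown in culture. Expression is given as FPKM, the number of sequenced fragments scaled to the length of the transcript and to the size of the library, a level that is corrected for transcript length and can be compared between genes.

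There were 3 groups of 3 libraries, all from adult C57BL/6J mice aged 10 to 12 weeks, and every library was prepared from a separate isolation that pooled the lungs of 4 mice. ECtrl mice carried the Cre transgene and intact Jnk1 and Jnk2 genes (Cdh5-Cre+ Jnk1+/+ Jnk2+/+ Jnk3-/-). EfCtrl mice had no Cre but carried LoxP alleles (Cdh5-Cre- Jnk1LoxP/LoxP Jnk2LoxP/LoxP Jnk3-/-), and E3KO mice carried both (Cdh5-Cre+ Jnk1LoxP/LoxP Jnk2LoxP/LoxP Jnk3-/-). The controls therefore lacked Jnk3 (*Mapk10*) as well, and E3KO differed from them in the loss of Jnk1 (*Mapk8*) and Jnk2 (*Mapk9*) from cells in which the Cdh5 promoter had driven Cre. Comparison with both controls asks whether a difference goes with the loss of the kinases rather than with Cre or the LoxP alleles alone.

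A MAP kinase is switched on when a MAP kinase kinase phosphorylates a threonine and a tyrosine in its activation loop, and a dual-specificity phosphatase switches it off by removing both phosphates. The mRNA of several of these phosphatases is induced by the kinases that they inactivate, so that the family is both a brake on MAP kinase signaling and a readout of it. Its members fall into 3 classes. *Dusp1*, *Dusp2*, *Dusp4* and *Dusp5* encode nuclear enzymes made on stimulation, *Dusp6*, *Dusp7* and *Dusp9* encode cytoplasmic enzymes that prefer ERK, and *Dusp8*, *Dusp10* and *Dusp16* encode enzymes that prefer JNK and p38. JNK acts on transcription in large part through cJun and ATF2, which bind the AP-1 site (TGANTCA) and the cAMP response element, or CRE (TGACGTCA).

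The promoters are shown for the member with the lowest E3KO level relative to the controls, *Dusp8*, and for 3 others, *Dusp1*, *Dusp16* and *Dusp10*, whose E3KO levels were also below every control level and whose windows differ in these sites. Each window runs from 250 bases before to 50 bases after the transcription start, 5′ to 3′ on the strand of the gene, and was taken from RefSeq on GRCm38.p6. *Dusp8* is at chr7:142095235-142095534 (minus strand), *Dusp1* at chr17:26508423-26508722 (minus strand), *Dusp16* at chr6:134792579-134792878 (minus strand) and *Dusp10* at chr1:184034131-184034430 (plus strand). The *Dusp10* window lies inside the measured locus, which starts upstream at base 184013302. The *Dusp8* window also lies inside its locus, which starts upstream at base 142095843. Other start sites of these genes were not examined. Capitals mark TGACG, the first 5 bases of the CRE, on either strand, and therefore each whole CRE too.
Dusp8: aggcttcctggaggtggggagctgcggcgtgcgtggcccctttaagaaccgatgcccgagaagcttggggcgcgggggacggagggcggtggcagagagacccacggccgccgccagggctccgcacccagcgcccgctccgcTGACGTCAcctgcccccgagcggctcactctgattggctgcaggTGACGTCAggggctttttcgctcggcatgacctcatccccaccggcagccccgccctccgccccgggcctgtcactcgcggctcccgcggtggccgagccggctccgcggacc
Dusp1: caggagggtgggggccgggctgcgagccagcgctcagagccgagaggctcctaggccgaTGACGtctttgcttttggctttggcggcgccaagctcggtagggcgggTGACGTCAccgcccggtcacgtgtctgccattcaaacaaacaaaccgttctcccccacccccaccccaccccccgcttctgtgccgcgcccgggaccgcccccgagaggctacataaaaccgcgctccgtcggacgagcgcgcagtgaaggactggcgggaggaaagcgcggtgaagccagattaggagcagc
Dusp16: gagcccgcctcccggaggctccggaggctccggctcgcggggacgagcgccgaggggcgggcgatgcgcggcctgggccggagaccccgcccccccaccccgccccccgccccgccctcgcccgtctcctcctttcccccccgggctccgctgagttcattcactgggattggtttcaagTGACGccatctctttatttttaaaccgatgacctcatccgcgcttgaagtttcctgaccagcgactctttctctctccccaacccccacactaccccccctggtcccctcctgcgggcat
Dusp10: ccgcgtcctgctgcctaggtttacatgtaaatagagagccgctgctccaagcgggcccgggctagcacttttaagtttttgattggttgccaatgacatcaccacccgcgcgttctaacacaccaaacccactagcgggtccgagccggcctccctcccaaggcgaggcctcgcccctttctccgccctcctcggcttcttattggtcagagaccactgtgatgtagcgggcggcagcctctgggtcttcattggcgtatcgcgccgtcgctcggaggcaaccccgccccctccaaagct

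A RefSeq window was found for 8 of the 10 members, all except *Dusp4* and *Dusp9*. The *Dusp8* window holds 2 CREs, which begin at -107 and -63 relative to the start base, and the *Dusp1* window holds 1, at -143. A CRE on either strand is present in 1.79% of the 32851 windows in the RefSeq table. The shorter TGACG is common, with 20.8% of all windows, and *Dusp2*, *Dusp5* and *Dusp16* have 1 match each outside a CRE while *Dusp6*, *Dusp7* and *Dusp10* have 0. None of the 8 windows holds TGANTCA, which 7.81% of all windows do. These matches describe the letters of the windows and were not tested as binding sites.

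The targeted genes were examined first as a check of the labels. *Mapk9* measured 44.1, 50.9 and 47.9 FPKM in ECtrl and 45.5, 42.7 and 47.9 FPKM in EfCtrl, and 27.6, 35.1 and 20.7 FPKM in E3KO replicates 1, 2 and 3, so that every E3KO library was below every control. *Mapk8* measured 14.0 to 17.9 FPKM in the 6 controls and 8.77 and 4.65 FPKM in E3KO replicates 2 and 3, but 20.7 FPKM in the library labelled E3KO replicate 1, which was above all controls. *Mapk8* therefore goes against the label of that library while *Mapk9* does not, and the gene-level FPKM also counts exons outside the deleted part. The library labelled E3KO replicate 1 stood apart in another way, because 10 symbols held 96.4% of its summed FPKM against 40.9% to 56.8% in the others. For most of the phosphatases and for *Mapk8*, the difference without the library labelled E3KO replicate 1 is also given. *Mapk10* was at or below 0.270 FPKM in every library.

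The defining markers of endothelium were high in every library, with sums of 3093 to 4251 FPKM over 10 genes. The leukocyte markers (10 genes) summed to 72.2 to 152 FPKM in ECtrl, 157 to 252 FPKM in EfCtrl and 197 to 313 FPKM in E3KO, where replicates 2 and 3 were above all controls, while *Cd3e* was listed at 0 throughout. Lymphatic endothelial markers (6 genes) summed to 2179 to 2862 FPKM in the controls and 2011 to 2319 FPKM in E3KO, a sum to which *Lyve1* contributes most. Of these 6, however, 3 were below every control in all 3 E3KO libraries, namely *Prox1* (117 to 158 FPKM in the controls and 58.1 to 79.2 FPKM in E3KO), *Reln* (50.2 to 81.0 and 32.7 to 34.7 FPKM) and *Ccl21a* (2.03 to 9.83 and 0.591 to 1.02 FPKM). Smooth muscle and fibroblast markers (10 genes) summed to 12.0 to 78.2 FPKM in the controls and 10.1 to 22.9 FPKM in E3KO, and epithelial markers (8 genes) summed to 3.20 to 6.16 FPKM except for 51.5 FPKM in the library labelled E3KO replicate 1. Single markers of the other lists also separated the groups. *Itgam* (1 of 10 leukocyte markers) and *Emcn* (1 of 10 endothelial markers) were higher in each E3KO library than in each control. *Cnn1* and *Col1a1* (2 of 10 smooth muscle and fibroblast markers) were lower in each, and 0 of 8 epithelial markers separated either way. Of the 11811 genes that reached 1 FPKM in the mean of any group, 11.1% were lower in each and 4.89% higher. *Cnn1* did not reach that level, since its highest group mean was 0.639 FPKM. The markers named here, like the 3 lymphatic ones, were picked after their values were seen. These values move with the groups to the extent given, and their part in the results on phosphatases was not tested. In such bulk cultures, fewer cells of a type and less RNA per cell cannot be told apart.

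All 10 phosphatase mRNAs were detected in control MLEC, over a more than 10-fold range of FPKM. *Dusp1* had the highest level, 96.0 ± 15.5 FPKM (SD, n = 6), followed by *Dusp6* with 37.7 ± 3.68 FPKM and *Dusp5* with 37.3 ± 4.60 FPKM. *Dusp7* with 13.2 ± 1.67 FPKM and *Dusp2* with 12.3 ± 1.87 FPKM came next, then *Dusp16* with 7.40 ± 0.567 FPKM. *Dusp10* with 4.53 ± 0.314 FPKM, *Dusp4* with 4.48 ± 0.367 FPKM, *Dusp9* with 2.86 ± 0.482 FPKM and *Dusp8* with 1.81 ± 0.272 FPKM had the lowest levels. The control ranges of neighbours in this order overlapped for *Dusp6* and *Dusp5*, for *Dusp7* and *Dusp2*, for *Dusp10* and *Dusp4* and for *Dusp9* and *Dusp8*, and did not overlap elsewhere. *Dusp9* was nevertheless above *Dusp8* within each of the 9 libraries. The early-response phosphatase gene *Dusp1* thus supplied 42.0% to 47.4% of the family's summed FPKM in the controls, and *Dusp8* 0.691% to 1.07%.

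**Figure D1:**
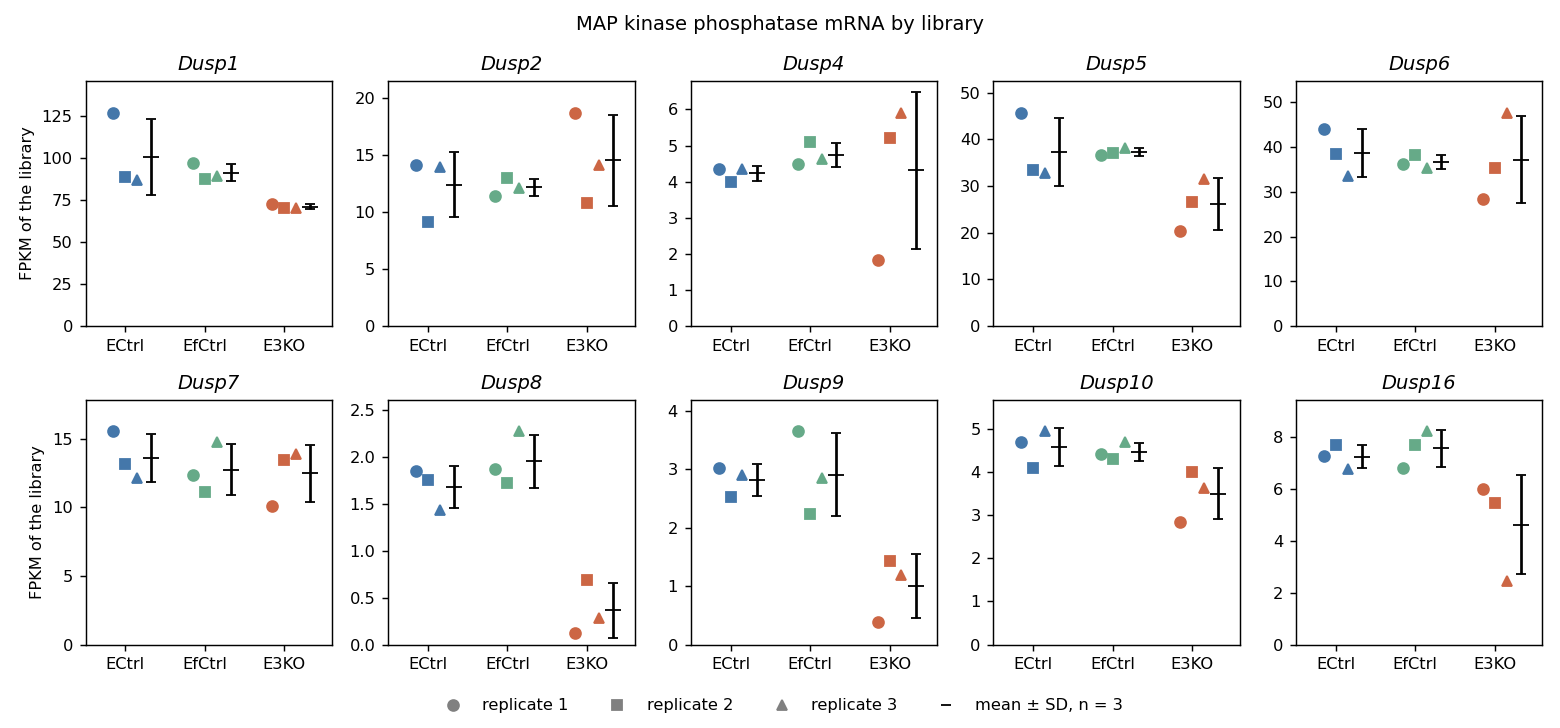
FPKM of the 10 phosphatase genes in each of the 9 libraries, with the y axis of each panel starting at 0. Points are single libraries (circle, square and triangle for replicates 1, 2 and 3) and bars are the mean ± SD of 3 libraries. The E3KO points of *Dusp8* (0.123 to 0.688 FPKM) and *Dusp9* (0.385 to 1.44 FPKM) sit well below all control points, whereas those of *Dusp6* (28.5 to 47.6 FPKM) lie on both sides of them.

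The 3 phosphatases that prefer JNK and p38 were lower in all 3 E3KO libraries than in any control library, as were 11.1% of the 11811 genes that reached 1 FPKM in the mean of any group. *Dusp16* and *Dusp10* were not called in the fit of genes with a mean of at least 2 FPKM in any group (limma adjusted p of 0.125 and 0.147). *Dusp8* was below that filter. It was called in a separate fit with the filter at 1 FPKM, which it passed only through its controls. The summed FPKM of *Dusp8*, *Dusp10* and *Dusp16* was 13.7 ± 0.770 (SD, n = 6) in the controls, from 13.1 to 15.2, and 8.49 ± 1.93 (SD, n = 3) in E3KO, from 6.36 to 10.1. The 3 genes differed in how much each was lower, from 79.9% for *Dusp8* to 22.7% for *Dusp10* (group means of FPKM).

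*Dusp8*, whose product acts on JNK and p38, had the largest relative difference of the 10 members. It measured 1.85, 1.75 and 1.43 FPKM in ECtrl, 1.86, 1.72 and 2.27 FPKM in EfCtrl, and 0.123, 0.688 and 0.284 FPKM in E3KO replicates 1, 2 and 3. The highest E3KO level was thus less than the lowest control level, and the E3KO mean of 0.365 ± 0.291 FPKM (SD, n = 3) was 79.9% below the control mean. The difference was -1.06 on the log2(FPKM + 1) scale (SE 0.14, 95% interval -1.39 to -0.73, limma adjusted p = 0.0143). This scale understates the change of genes with such low levels. *Dusp8* lay under the expression filter used for the other members (a mean of at least 2 FPKM in any group), since its highest group mean was 1.95 FPKM, and its fit is therefore the one with the filter at 1 FPKM over 11811 genes. It passed that filter, too, only through its controls (means of 1.68 and 1.95 FPKM), so that it was tested only because its control level was high. In that fit *Dusp8* fell against each control alone as well, by 0.99 against ECtrl (SE 0.17, adjusted p = 0.0338) and by 1.13 against EfCtrl (SE 0.17, adjusted p = 0.0397). Without any single library the adjusted p against both controls together was 0.0192 to 0.0488, except for 0.0821 without E3KO replicate 3. The calls against a single control depended on more libraries. The call against ECtrl held only without E3KO replicate 1 or 2 (adjusted p = 0.0435 to 0.122 over the omissions), and that against EfCtrl only without ECtrl replicate 1 or E3KO replicate 2 (0.0376 to 0.187). Without the library labelled E3KO replicate 1 the difference from both controls was -0.93 (adjusted p = 0.0289). The locus (chromosome 7, 142079490 to 142095843, minus strand, mm10) is overlapped by *Gm32786*, a non-coding RNA gene on the opposite strand, and whether the quantification used strand is not given in the sources used here.

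*Dusp16*, which encodes another phosphatase with preference for JNK and p38, measured 7.28, 7.68 and 6.77 FPKM in ECtrl, 6.79, 7.70 and 8.21 FPKM in EfCtrl, and 5.99, 5.44 and 2.44 FPKM in E3KO replicates 1, 2 and 3. All 3 E3KO libraries were below all controls, but replicate 3 was far lower than the other two. The difference was -0.64 (SE 0.21, 95% interval -1.13 to -0.15), and its adjusted p of 0.125 by limma did not pass the threshold. Leaving out E3KO replicate 3 reduced the difference to -0.32, and without the library labelled E3KO replicate 1 it was -0.83. An antisense gene, *Gm36328*, lies over the *Dusp16* locus (chromosome 6, 134715473 to 134792625).

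*Dusp10*, the gene of a JNK and p38 phosphatase found in both nucleus and cytoplasm, measured 4.70, 4.09 and 4.95 FPKM in ECtrl, 4.42, 4.31 and 4.72 FPKM in EfCtrl, and 2.85, 4.01 and 3.64 FPKM in E3KO. The groups did not overlap, although E3KO replicate 2 was only just under the lowest control. The difference of -0.30 (SE 0.11, 95% interval -0.55 to -0.05) had an adjusted p of 0.147 by limma, and without the library labelled E3KO replicate 1 it was -0.20. *1700056E22Rik*, on the other strand, overlaps the *Dusp10* locus (chromosome 1, 184013302 to 184075636).

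The cytoplasmic ERK-selective class did not move as a unit. Its summed FPKM was 48.6 to 62.7 in the controls and 39.0 to 62.7 in E3KO. *Dusp9*, best known for its role in the placenta, measured 3.03, 2.52 and 2.90 FPKM in ECtrl, 3.65, 2.23 and 2.85 FPKM in EfCtrl, and 0.385, 1.44 and 1.18 FPKM in E3KO replicates 1, 2 and 3. Every E3KO library was below every control library, and the mean was 65.0% lower. *Dusp9* (chromosome X, 73639419 to 73643514) fell against both controls together by 0.98 on the log2(FPKM + 1) scale (SE 0.19, 95% interval -1.42 to -0.54, limma adjusted p = 0.0322). Against a single control group the size was nearly the same, but the adjusted p was 0.0653 for ECtrl (-0.97) and 0.0799 for EfCtrl (-0.99). *Dusp9* passed the expression filter only through the controls, since its E3KO mean was 1.00 ± 0.548 FPKM (SD, n = 3), so that it was tested only because its control level was high. The call against both controls was lost without ECtrl replicate 1 (adjusted p = 0.0619), ECtrl replicate 3 (0.0559), EfCtrl replicate 1 (0.0772), EfCtrl replicate 3 (0.0786) or E3KO replicate 3 (0.0899), with differences of -1.14 to -0.74 over all omissions.

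*Dusp6*, the gene of a cytoplasmic ERK phosphatase that is itself a common readout of ERK activity, measured 44.1, 38.4 and 33.6 FPKM in ECtrl, 36.2, 38.3 and 35.4 FPKM in EfCtrl, and 28.5, 35.3 and 47.6 FPKM in E3KO. The E3KO libraries enclosed the range of the controls, with replicate 1 below and replicate 3 above it. The difference from the controls was -0.04 (SE 0.16, 95% interval -0.41 to 0.33, limma adjusted p = 0.887), and turned to 0.03 when each library was centred on its median and to 0.13 without the library labelled E3KO replicate 1. *Dusp7*, a close relative with the same preference for ERK, measured 11.1 to 15.5 FPKM in the controls and 10.1, 13.5 and 13.9 FPKM in E3KO, with only replicate 1 below the controls. Its difference of -0.08 (SE 0.14, 95% interval -0.40 to 0.25, adjusted p = 0.757 by limma) was positive without the library labelled E3KO replicate 1 (0.06) and, against EfCtrl, after centring (0.04). Neither interval shows that the levels were equal.

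Of the inducible nuclear class, *Dusp1* and *Dusp5* were lower in each E3KO library than in any control, whereas *Dusp2* and *Dusp4* were not (11.1% of all genes were lower in this way). None of the 4 passed the test across all genes. The class sum was 135 to 191 FPKM in the controls and 113 to 122 FPKM in E3KO. *Dusp1*, an early-response gene whose product acts on p38, JNK and ERK, measured 127, 88.7 and 86.8 FPKM in ECtrl, 96.9, 87.5 and 89.4 FPKM in EfCtrl, and 72.5, 70.0 and 70.5 FPKM in E3KO. The E3KO libraries lay close together at 71.0 ± 1.30 FPKM (SD, n = 3), 26.0% under the control mean, while ECtrl replicate 1 was well above the other controls. The difference of -0.42 (SE 0.13, 95% interval -0.72 to -0.12) had a limma adjusted p of 0.110. *Dusp5*, whose product binds and inactivates ERK in the nucleus, measured 45.6, 33.5 and 32.8 FPKM in ECtrl, 36.6, 37.1 and 38.2 FPKM in EfCtrl, and 20.4, 26.5 and 31.6 FPKM in E3KO. The groups did not overlap, but E3KO replicate 3 was just under the lowest control. After each library was centred on its median, E3KO replicate 3 was above ECtrl replicate 3. The difference was -0.51 (SE 0.16, 95% interval -0.87 to -0.15, limma adjusted p = 0.105), and -0.35 without the library labelled E3KO replicate 1. The *Dusp5* locus (chromosome 19, 53529109 to 53542431) is overlapped by an antisense gene, *AC137853.2*.

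*Dusp4*, the gene of a nuclear phosphatase of ERK and JNK, measured 4.36, 3.995 and 4.34 FPKM in ECtrl, 4.48, 5.10 and 4.61 FPKM in EfCtrl, and 1.83, 5.20 and 5.90 FPKM in E3KO replicates 1, 2 and 3. The library labelled E3KO replicate 1 was below all controls, and the other E3KO libraries were above them. With all libraries the difference was -0.14 (SE 0.26, 95% interval -0.73 to 0.44, limma adjusted p = 0.753), and without the library labelled E3KO replicate 1 it was 0.26 (limma adjusted p = 0.161, exact permutation p = 0.0357, the smallest that 2 libraries against 6 allow). *Dusp2*, a phosphatase gene best known in immune cells, measured 9.12 to 14.1 FPKM in the controls and 18.7, 10.8 and 14.2 FPKM in E3KO. Replicate 1 was well above the controls, replicate 3 barely so and replicate 2 within them, and the difference was 0.21 (SE 0.19, 95% interval -0.23 to 0.64, limma adjusted p = 0.531), or 0.02 without replicate 1.

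**Figure D2:**
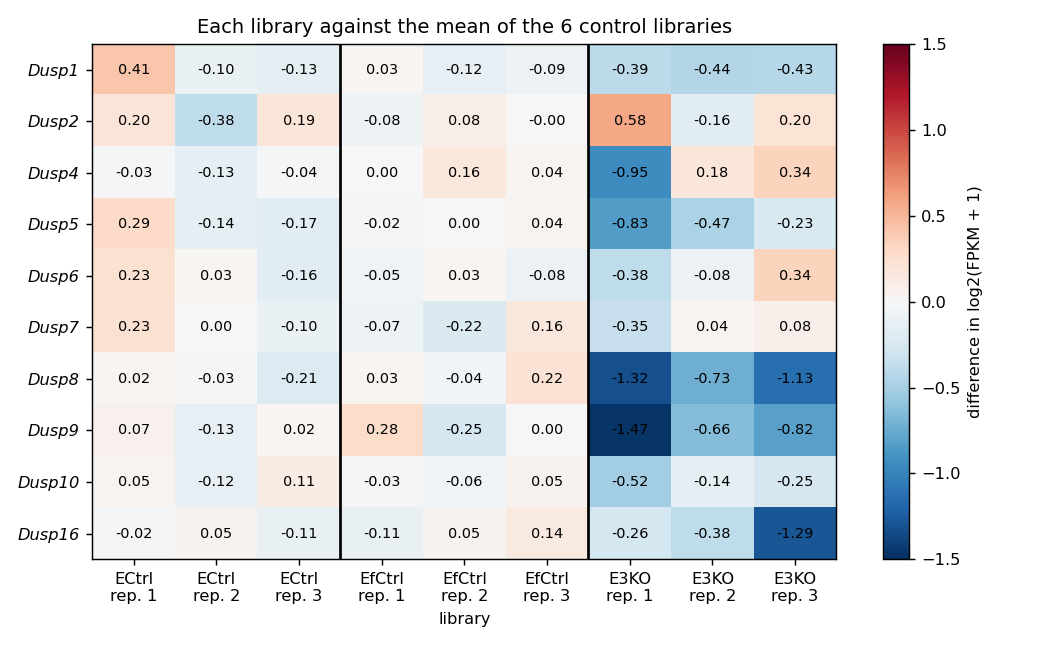
Each library minus the mean of the 6 control libraries on the log2(FPKM + 1) scale, with genes in rows, libraries in columns and the value written in each cell. Blue is below and red above the control mean. All 3 E3KO columns are below 0 for *Dusp1*, *Dusp5*, *Dusp8*, *Dusp9*, *Dusp10* and *Dusp16*, and the library labelled E3KO replicate 1 stands apart from replicates 2 and 3 for *Dusp4* (-0.95 against 0.18 and 0.34).

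In all, 6 of the 10 members were lower in each of the 3 E3KO libraries than in each of the 6 controls, and 0 were higher in each. Among all 11811 genes that reached 1 FPKM in the mean of any group, 11.1% were lower in this way and 4.89% higher. Of the 6 members, *Dusp8* reached 1 FPKM only through its controls (means of 1.68 and 1.95 FPKM, against 0.365 FPKM in E3KO). *Dusp9* had an E3KO mean of 1.00 FPKM, at that threshold. The count of 6 is therefore not a like comparison with the 11.1% for these members. Without the library labelled E3KO replicate 1, *Dusp4* was higher in each remaining E3KO library than in each control. Such separation is easier to reach with fewer E3KO libraries. Its share over all genes was not counted, and the 4.89% does not apply to it. For each of the 6 members the exact two-sided permutation test of the 3 E3KO and 6 control libraries gave p = 0.0119, the smallest possible, and the other four gave p = 0.321 (*Dusp2*), 0.738 (*Dusp4*), 0.798 (*Dusp6*) and 0.595 (*Dusp7*). Separation from every control largely fixes the smallest p in advance, so for the 6 members it adds little to their count. The 10 permutation tests were separate and without adjustment, and without the library labelled E3KO replicate 1 the exact permutation p was 0.0714 for *Dusp1*. In the same comparison 5 members, the 6 without *Dusp5*, were separated after each library was centred on its median (7.98% of all genes).

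The test across all genes was stricter. At an adjusted p under 0.05, limma called 4.8% of the 10605 genes tested in E3KO against both controls (346 genes or 3.26% lower and 163 higher, or 268 lower and 209 higher after centring), 2.25% against ECtrl and 0.952% against EfCtrl. Of the 10 members, 9 passed the filter, and *Dusp9* alone was called against both controls. In the comparisons with ECtrl and EfCtrl 0 of 9 were called, and 5 of 9 had an unadjusted p under 0.05 in the lower direction in each, as in the comparison with both controls (14.1%, 12.7% and 16.9% of all genes did). After each library was centred on its median, these counts were 3 of 9 against ECtrl, 3 of 9 against EfCtrl and 5 of 9 against both. In the higher direction 0 members had such a p after centring, so their counts in either direction were the same. Of the 10605 genes, 2009, 1828 and 2391 then had such a p in either direction. With the filter at 1 FPKM, *Dusp8* was called in all 3 comparisons and *Dusp9* against both controls (2.76% of 11811 genes were called lower there, 1.13% against ECtrl and 0.415% against EfCtrl). *Dusp8* passed the filter only through its control levels, and *Dusp9* had an E3KO mean of 1.00 FPKM, at that threshold, so these calls are no support for the family as a whole. With no filter on low values the *Dusp8* calls against ECtrl (limma adjusted p = 0.0546) and EfCtrl (0.0513) were lost. The median difference of the 9 members from both controls was -0.30, beside -0.08 for all genes tested. The 9 include *Dusp9*, which passed the filter only through its controls. These 3 comparisons share the E3KO libraries, and the third shares the controls of the other two.

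**Figure D3:**
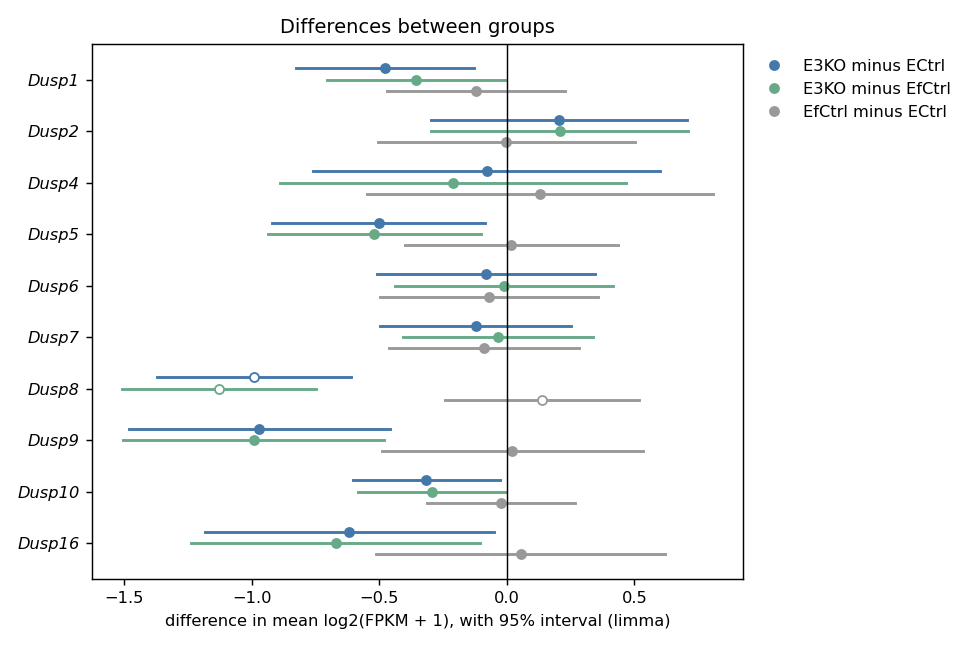
Difference of mean log2(FPKM + 1) between groups for each member, with 95% intervals from limma. Blue is E3KO minus ECtrl, green E3KO minus EfCtrl and grey EfCtrl minus ECtrl, and open symbols (*Dusp8*) come from the fit with the filter at 1 FPKM. The intervals of *Dusp8* and *Dusp9* lie entirely below -0.4 in both E3KO comparisons, and every grey interval spans 0.

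Between the control groups, which differ in Cre and in the LoxP alleles, 0 of the 9 members were called by limma, and 0 had an unadjusted p under 0.05. Over all genes 0.0% were called, and 195 had an unadjusted p under 0.05. The member with the largest difference was *Dusp8*, 0.14 higher in EfCtrl (SE 0.17, 95% interval -0.24 to 0.52, adjusted p = 1.0 in the limma fit with the filter at 1 FPKM). That of *Dusp9* was 0.02 (SE 0.22, 95% interval -0.49 to 0.53) and that of *Dusp1* was -0.12 (SE 0.15).

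The composition of the family was also compared, since the summed FPKM of all 10 members was 200 to 267 in the controls and 161 to 191 in E3KO. As a share of that sum, only *Dusp8* (0.691% to 1.07% in the controls and 0.0762% to 0.398% in E3KO) and *Dusp9* (1.07% to 1.70% and 0.239% to 0.831%) were lower in every E3KO library than in every control. *Dusp1* made up 42.0% to 47.4% in the controls and 36.9% to 44.9% in E3KO. *Dusp5* made up 16.4% to 18.0% and 12.6% to 16.5%, and *Dusp6* 16.5% to 19.0% and 17.7% to 24.9%. The ranges of these 3 genes, which supply most of the family's mRNA, overlapped between the groups when all libraries were used. Without the library labelled E3KO replicate 1, *Dusp1* made up 36.9% and 40.5%, below every control, and *Dusp6* 20.4% and 24.9%, above every control, as the shares of *Dusp4* and *Dusp7* then were too. With fewer E3KO libraries such separation is easier to reach, and no share over all genes is available for it.

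Related genes of the MAP kinase pathway were examined as 5 lists. Of 16 atypical dual-specificity phosphatases, which lack the MAP kinase-binding domain, 10 passed the filter. Against both controls 1 was called lower and 0 higher (3.26% of all genes were called lower). The gene called was *Dusp3*, whose product acts on ERK and JNK. It measured 68.5, 53.3 and 52.8 FPKM in ECtrl, 56.1, 49.5 and 54.3 FPKM in EfCtrl, and 28.5, 34.3 and 28.7 FPKM in E3KO. No E3KO library reached 35 FPKM and no control was under 49 FPKM. The difference of *Dusp3* was -0.85 against both controls (SE 0.12, limma adjusted p = 0.0131), -0.91 against ECtrl (adjusted p = 0.0260) and -0.79 against EfCtrl (adjusted p = 0.0458). Against both controls its call was lost without E3KO replicate 3 (adjusted p = 0.0746) and held without any other single library. With the filter at 1 FPKM the *Dusp3* call against EfCtrl was lost. Of 6 MAP kinase phosphatases of other families, 3 passed the filter and 0 were called.

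Among 10 MAP kinases, 8 passed the filter and the targeted *Mapk9* alone was called lower (-0.75, SE 0.15, limma adjusted p = 0.0359, and over 0.05 without any 1 library other than E3KO replicate 2), while *Mapk8* had a difference of -0.67 (SE 0.35, adjusted p = 0.285), which was -1.18 (SE 0.20, limma adjusted p = 0.0298) without the library labelled E3KO replicate 1. All 7 MAP kinase kinases passed and 0 were called. Among them *Map2k2* was lower in each E3KO library (3.59 to 5.74 FPKM) than in each control (6.39 to 9.40 FPKM). Its difference was -0.64 (limma adjusted p = 0.0662). Of 20 genes that feed back on the ERK pathway or are induced by it, 12 passed. Of these, 1 was called lower and 0 higher (3.26% of all genes were called lower). *Spred2*, whose product restrains Ras and Raf signaling to ERK, measured 12.6 to 15.2 FPKM in the controls and 8.17, 9.16 and 10.8 FPKM in E3KO, without overlap. It fell against both controls by 0.51 (SE 0.11, limma adjusted p = 0.0406), with an adjusted p of 0.0706 against ECtrl and 0.110 against EfCtrl. The *Spred2* call was lost whichever 1 library was left out (limma adjusted p = 0.0583 to 0.103). *Spry1* and *Spry2* were also lower in each E3KO library than in each control, but were not called (limma adjusted p = 0.214 and 0.0991). *Spred3* was instead higher in each, with 24.4 to 29.3 FPKM against 16.2 to 22.1 FPKM in the controls (limma adjusted p = 0.119). The median difference from both controls was 0.04 for the atypical phosphatases, -0.14 for the other phosphatases, 0.07 for the MAP kinases, -0.10 for the MAP kinase kinases and -0.04 for the ERK list, beside -0.08 for all genes.

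**Figure D4:**
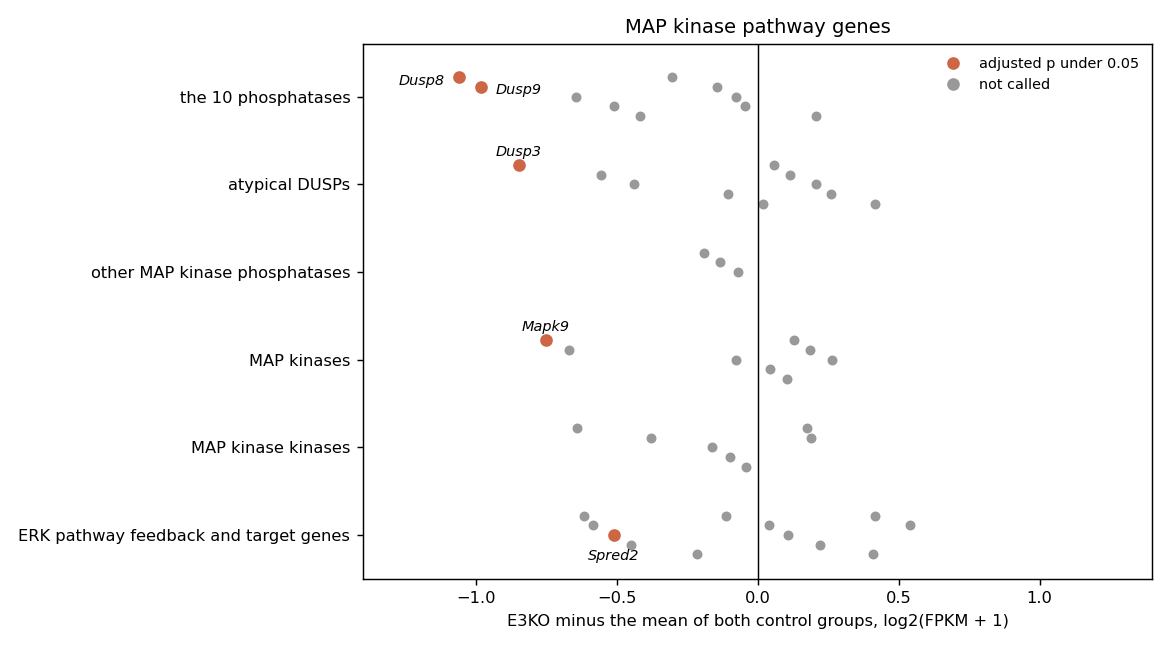
Difference of E3KO from the mean of both control groups, in log2(FPKM + 1), for each gene that passed the filter in the 10 phosphatases and the 5 related lists (points are genes, spread vertically only for legibility). Orange points were called by limma at an adjusted p under 0.05, and *Dusp8* comes from the fit with the filter at 1 FPKM. The called genes, *Dusp8*, *Dusp9*, *Dusp3*, *Mapk9* and *Spred2*, are all on the negative side.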

How the data were processed

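RNA was measured by RNA-seq in 9 libraries of cultured MLEC. The authors aligned paired reads to mm10 with TopHat2, merged transcript models with Cuffmerge, and deposited FPKM per library from Cufflinks (the submitters' processing notes list version 1.0.3). The per-library values were the same in each table that lists them. Their columns of fold changes, p-values and q-values were not used. FPKM values do not carry the fragments counted per gene, so the depth is unknown, no counting interval was given, and the number of libraries sets the precision. The members, classes and lists were chosen with earlier results of these data known.

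Groups and replicate numbers came from the sample labels. The values log2(FPKM + 1) of all 9 libraries were fitted with 3 groups in limma 3.58.1 under R 4.3.3. The fit covered the 10605 genes whose symbol names 1 locus and whose mean was at least 2 FPKM in any group. Adjustment was by Benjamini-Hochberg over all genes tested, with calls at an adjusted p under 0.05. The fit was tested on simulated data. Each member was also tested by an exact permutation test, two-sided, between 3 E3KO and 6 control libraries, since 3 against 3 cannot go below p = 0.10. All members and targeted genes are named, and of the related lists those called in a comparison of E3KO. *Map2k2*, *Spry1*, *Spry2*, *Spred3*, *Etv1* and *Ptpn7* were named as well, after their values were seen. Alternatives were the filter, pseudocount, centring, trend, replicate block, a fold minimum, a fit of the compared groups only and omission of each library. Fits at 1 FPKM combined with centring, trend or omission, and family shares, were added after seeing the data. The test of overlapping loci used GENCODE annotation on mm10. Python 3.11.15 and scipy 1.17.1 were used.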

Additional observations from a re-analysis of the deposited data

Results flagged for a closer look

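ECtrl replicate 1 stood apart from the other 5 control libraries in 3 values that share the same gene. Its *Dusp1* level was 126.7 FPKM, its sum over the 4 inducible nuclear members was 190.8 FPKM, and its sum over all 10 members was 267.4 FPKM, each beyond the gap that Dixon's test allows for 6 values. In EfCtrl replicate 3 the sum of *Dusp8*, *Dusp10* and *Dusp16* was 15.2 FPKM, also beyond that gap. Chance gives such a gap in about 1 in 20 groups tested. Without ECtrl replicate 1 the difference of *Dusp1* between E3KO and both controls was -0.33 (limma adjusted p = 0.0899), beside -0.42 with it.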

How the results depend on the processing

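The number of members called against ECtrl and against EfCtrl went from 0 to 1 (*Dusp8*) with the filter at 1 FPKM, with or without centring, and stayed at 0 without any single library. Against both controls it went from 1 to 2 with the filter at 1 FPKM, alone, with centring or with a mean-variance trend, to 0 with a pseudocount of 0.1 FPKM (*Dusp9* adjusted p = 0.0522), and to between 0 and 2 without single libraries. With no filter on low values *Dusp9* had an adjusted p of 0.0603 and *Dusp8* of 0.0226 against both controls, over 20429 genes, while *Dusp8* lost its calls against ECtrl (0.0546) and EfCtrl (0.0513). The 6 members below every control became 2 as shares of the family's sum. Among all genes, 509 were called against both controls and 9 to 408 without single libraries, 239 and 0 to 215 against ECtrl, and 101 and 1 to 218 against EfCtrl. A fit of the compared groups only called 0 of 10458 genes against ECtrl and 70 of 10450 against EfCtrl. The calls against ECtrl thus depended on the spread shared with the EfCtrl libraries.

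The replicate numbers were not shown to pair the libraries, which came from separate isolations. Libraries with the same number had deviations correlated between -0.04 and 0.13 across genes, over 0.1 in 2 of 9 pairs. With the replicate block 0 members were called against both controls (*Dusp9* adjusted p = 0.0804), and 202 genes in all, with 1 against each control alone.

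Signs turned only for differences that were not called. After centring, *Dusp6* was at 0.03 against both controls (limma 0.02641 and, with the filter at 1 FPKM, 0.03456) and 0.06056 or 0.07621 against EfCtrl, and *Dusp7* at 0.0362 or 0.05185 against EfCtrl and 0.001036 against both. Over omissions of single libraries, differences from ECtrl ran from -0.3187 to 0.3233 for *Dusp4*, -0.2698 to 0.09053 for *Dusp6* and -0.2003 to 0.01336 for *Dusp7*. Those from EfCtrl ran from -0.4496 to 0.1924, -0.1997 to 0.1607 and -0.1207 to 0.1019, and those from both controls, by limma and by single gene alike, from -0.3841 to 0.2579, -0.2348 to 0.1256 and -0.1561 to 0.05762. Between the controls they ran from -0.2152 to 0.05531 for *Dusp1*, -0.1933 to 0.09722 for *Dusp2*, -0.06488 to 0.167 for *Dusp5*, -0.1664 to 0.02659 for *Dusp6*, -0.1905 to 0.00422 for *Dusp7*, -0.1114 to 0.1501 for *Dusp9*, -0.0877 to 0.02481 for *Dusp10* and -0.0001212 to 0.1206 for *Dusp16*. The cause was not tested for any of these changes. With 3 libraries a group, differences as small as those of *Dusp6* and *Dusp7* could not be resolved.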
